A study of Mus musculus with 238 samples.

Results

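Ptgds, Slc6a13, Dcn, Lum and Bgn, genes of the meninges and of vessel-associated fibroblasts, were followed through every brain region of 2 cohorts of aged mice. The 5 genes, of 21076 in the count table, were selected on earlier results of the same data, among them a lower Ptgds level in the cerebellum after plasma treatment. Bulk mRNA of 15 dissected brain regions was sequenced from C57BL/6JN mice that were 19 months old. In the diet cohort, all female, 5 mice were dietary restricted (aDR) and 4 fed freely (AL), and their liver was sequenced too (its restricted group carries the label DR). In the plasma cohort, all male, 3 mice received Young Mouse Plasma (YMP) and 4 received saline (PBS), both by retro-orbital injection. Sex and cohort therefore cannot be told apart, and no group carried a transgene or a deletion in the labels. Levels are given as CPM (counts scaled to library size, with TMM factors), changes as log2 fold changes of the treated over the control group. A gene was called changed at a Benjamini-Hochberg adjusted p under 0.05 over all genes tested.

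The meninges, the membranes that wrap the brain, hold fibroblasts in their layers and send them along penetrating vessels and into the stroma of the choroid plexus. Ptgds encodes lipocalin-type prostaglandin D synthase, which makes prostaglandin D2 and, secreted as beta-trace, is a major protein of cerebrospinal fluid. Besides the arachnoid and pia, oligodendrocytes and choroid plexus also express it. Slc6a13 encodes GAT2, a GABA and taurine transporter of the leptomeninges and of hepatocytes. Decorin (Dcn), lumican (Lum) and biglycan (Bgn) are small leucine-rich proteoglycans that bind and space collagen fibrils in the extracellular matrix.

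In GENCODE M21 on GRCm38, Ptgds lies at chr2:25466709-25470046 on the minus strand and Slc6a13 at chr6:121300227-121337733 on the plus strand. Bgn lies at chrX:73483602-73495933, Dcn at chr10:97479609-97518143 and Lum at chr10:97565128-97572703, all on the plus strand. Dcn and Lum are neighbours, 46984 bases apart. Of the 5 genes, 3 matched a RefSeq start (GRCm38.p6), namely Ptgds, Slc6a13 and Bgn, and sequence before it is shown 5′ to 3′. RefSeq and GENCODE place some starts differently: of the 250 bases before the RefSeq start, 93 of Ptgds and 61 of Slc6a13 lie in a GENCODE exon and are left out, and the Ptgds bases shown lie in an intron of a longer GENCODE transcript. Capitals mark the GC box (GGGCGG, searched on both strands), which 32.7% of 32851 mouse promoters of 250 bases hold. Shown are chr2:25469843-25469999 for Ptgds, chr6:121300038-121300226 for Slc6a13 (its first listed start) and chrX:73483351-73483600 for Bgn.
Ptgds: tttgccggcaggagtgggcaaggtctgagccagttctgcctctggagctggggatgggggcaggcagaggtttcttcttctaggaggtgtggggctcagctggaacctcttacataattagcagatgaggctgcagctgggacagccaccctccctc
Slc6a13: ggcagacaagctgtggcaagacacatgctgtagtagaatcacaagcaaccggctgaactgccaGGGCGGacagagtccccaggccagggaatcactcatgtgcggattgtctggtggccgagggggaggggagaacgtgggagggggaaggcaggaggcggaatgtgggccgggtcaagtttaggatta
Bgn: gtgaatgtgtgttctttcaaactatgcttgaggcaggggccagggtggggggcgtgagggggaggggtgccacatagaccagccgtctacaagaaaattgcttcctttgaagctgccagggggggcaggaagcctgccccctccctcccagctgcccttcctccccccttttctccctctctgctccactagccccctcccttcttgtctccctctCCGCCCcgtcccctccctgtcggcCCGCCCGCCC
The whole 250-base window of Slc6a13 held the GC box 2 times on the plus strand, 1 of them in the part shown, and the Bgn window 3 times on the minus strand, with 2 of the 3 overlapping. None of the 3 whole windows held TATAAA (in 12.4% of promoters), CACGTG (6.02%) or GTAAACA (3.17%) on either strand, and the Ptgds window held no GC box. Their GC content was 58.4%, 60.8% and 64.4%, against a median of 52.4% over all promoters.

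There were 131 diet and 98 plasma brain libraries and 9 liver libraries, with totals between 0.606 and 32.4 M counts and a median of 8.44 M. Groups held 2 to 5 libraries, 1 per mouse. Each mouse was a separate animal. The libraries labelled choroid plexus differed in tissue content. The summed level of 12 choroid plexus epithelium genes, among them Ttr, ran from 1227 to 23682 CPM in 15 of these libraries and was 411 CPM in that of YMP mouse 73. In the region labelled SVZ the same sum ran from 254 to 32875 CPM, and its split between plasma groups is given beside the results it moves with.

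Ptgds was by far the most abundant of the 5 genes. Per kilobase of exon, its median over the 112 control libraries was 479 CPM, against 3.41 for Dcn, 3.39 for Slc6a13, 2.65 for Bgn and 2.09 for Lum. All 5 were detected in every brain library. In liver, the level of Ptgds was between 0.230 and 4.11 CPM over 9 libraries, whereas Dcn was at 242 ± 28.9 CPM, Slc6a13 at 153 ± 34.4 CPM and Bgn at 147 ± 7.41 CPM in the AL group (SD, n = 4). Liver libraries were scaled apart from brain.

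Ptgds was highest in the entorhinal cortex in both control groups. There it read 3939, 2572 and 3478 CPM in the 3 AL mice and 3561, 3659, 3530 and 2333 CPM in the 4 PBS mice. The olfactory bulb followed in AL mice (2544 ± 513 CPM, SD, n = 4), and the pons (3180 ± 840 CPM, n = 3) and then the olfactory bulb (2603 ± 314 CPM, n = 4) in PBS mice. Among cortical areas, Ptgds read 1799 ± 264 CPM in visual cortex and 1266 ± 114 CPM in motor cortex of AL mice (n = 4 each). The lowest means were 278 ± 95.8 CPM in caudate putamen of AL mice (n = 4) and 333 ± 94.1 CPM in hypothalamus of PBS mice (n = 3), so that the highest region was 11.96-fold and 9.81-fold above the lowest. Of the 14 pairs of neighbours in the order of regions, 1 pair in AL mice (olfactory bulb over visual cortex) and none of 14 in PBS mice had ranges that did not overlap. The order was alike in the 2 cohorts (Spearman's rho 0.832 over 15 region means, from different mice of different sex but the same dissection scheme). In bulk tissue, fewer cells of a type and less RNA per cell cannot be told apart.

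Slc6a13, the GABA transporter, was also highest in entorhinal cortex (39.1 ± 10.2 CPM in AL, n = 3, and 30.8 ± 3.09 CPM in PBS, n = 4), followed by olfactory bulb (24.9 ± 3.13 and 30.7 ± 2.09 CPM, n = 4 each). The lowest level was in corpus callosum, with 2.53, 2.39 and 2.76 CPM in AL and 1.34, 3.52 and 3.09 CPM in PBS mice, 15.3-fold and 11.6-fold under the highest. In AL mice 3 of 14 neighbouring regions were apart, namely entorhinal cortex over olfactory bulb, olfactory bulb over visual cortex and caudate putamen over corpus callosum, and in PBS mice none of 14.

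Dcn was also highest in entorhinal cortex, where single mice differed most. The 3 AL mice read 431, 248 and 80.8 CPM and the 4 PBS mice 20.04, 62.6, 67.2 and 88.9 CPM. Over all 15 libraries of this region Dcn spread 23.9-fold, whereas Ptgds spread 2.14-fold and Slc6a13 1.94-fold. Posterior hippocampus, olfactory bulb and choroid plexus followed, with group means between 46.6 and 66.5 CPM. No neighbouring regions were apart in either control group. Unlike entorhinal cortex, visual and motor cortex were in the lower part of the order for Dcn, with means between 9.40 and 14.6 CPM.

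Lum, at the lowest level of the 5 genes, had another order. It was highest in the anterior hippocampus of AL mice (11.8 ± 2.27 CPM, n = 4) and in the SVZ of PBS mice (11.9 ± 7.18 CPM, n = 4), where the anterior hippocampus (11.5 ± 3.92 CPM) and the choroid plexus (11.4 ± 2.498 CPM) stood next. Entorhinal cortex, first for Ptgds, Slc6a13 and Dcn, held only 5.44 ± 1.64 CPM (n = 3) and 4.46 ± 0.42 CPM (n = 4) of Lum. Its lowest means were 1.82 ± 0.51 CPM in caudate putamen of AL and 2.55 ± 0.87 CPM in hypothalamus of PBS mice (n = 4 and n = 3).

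Bgn stood out in the olfactory bulb. The 4 AL mice read 67.0, 73.8, 50.7 and 63.3 CPM and the 4 PBS mice 57.7, 70.7, 70.2 and 62.4 CPM. None of these 8 libraries overlapped with those of the next region, which was choroid plexus in AL (30.0 ± 12.9 CPM, n = 4) and entorhinal cortex in PBS mice (32.8 ± 4.97 CPM, n = 4). Thalamus, caudate putamen and hypothalamus held the lowest Bgn, with means between 6.53 and 8.83 CPM.

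**Figure D1:**
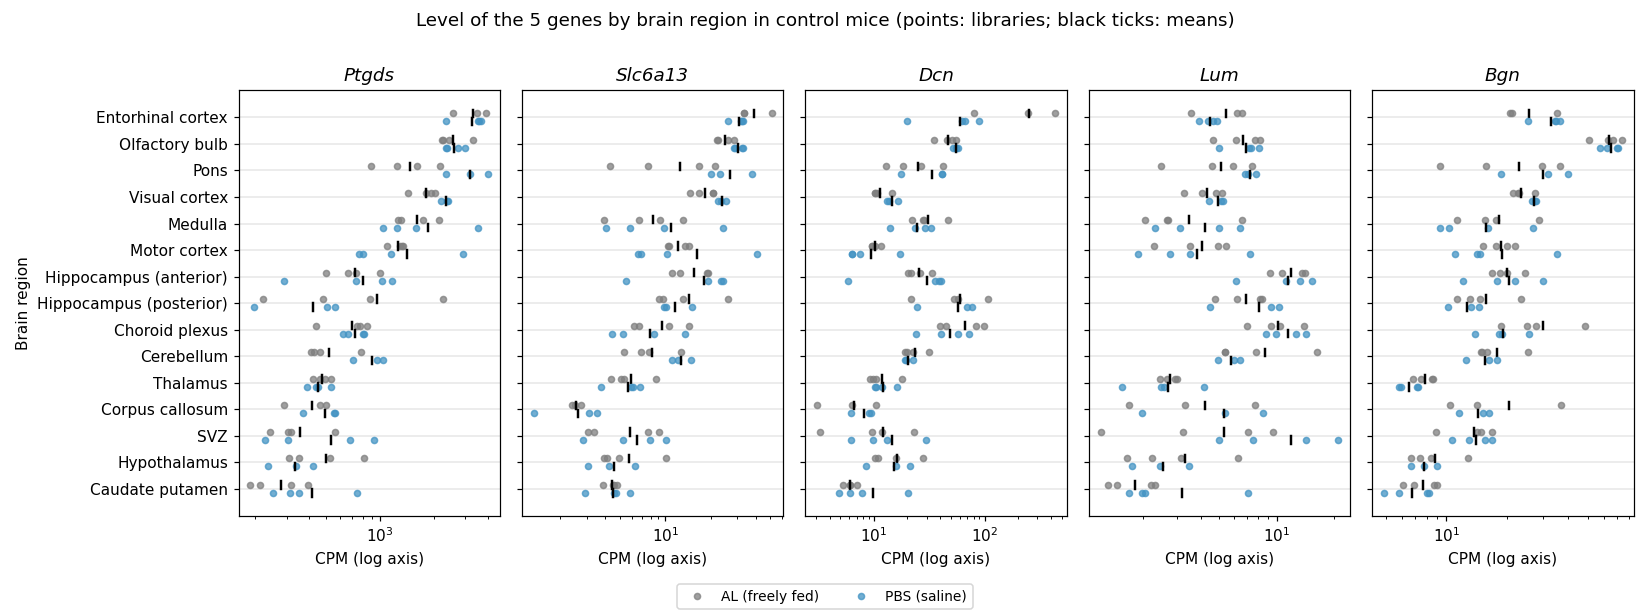
CPM of each gene (log axis) in the brain libraries of freely fed (AL) and saline-injected (PBS) control mice, 1 point per library, with black ticks at group means and regions ordered by Ptgds. Ptgds, Slc6a13 and Dcn peak in entorhinal cortex and Bgn in olfactory bulb, where all 8 libraries lie between 50.7 and 73.8 CPM.

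Within a region, libraries of the same treatment differed widely, and the 5 genes moved together in these deviations. Pearson's r of the deviations from the group means of log2 CPM was taken over 131 diet and 98 plasma libraries, which share mice, dissections and libraries. It was highest for Ptgds with Slc6a13 in diet (0.77, with 0.70 in plasma) and for Bgn with Slc6a13 in plasma (0.72, with 0.60 in diet). Dcn with Lum, its genomic neighbour, had 0.64 and 0.60. The lowest pair of the 10 was Dcn with Bgn, at 0.45 and 0.43. Motor cortex of PBS mouse 72 shows such a library. It read 2919 CPM of Ptgds against 759 to 1151 CPM in the other 3 PBS mice, 40.8 CPM of Slc6a13 against 6.58 to 10.3, 17.4 CPM of Dcn against 6.31 to 7.48 and 35.2 CPM of Bgn against 10.99 to 14.7. In that library the 5 genes were thus all above every other PBS library of motor cortex, Lum included (7.20 CPM against 1.88 to 3.52).

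The genes that followed each member most closely, of 14232 with a mean of at least 1 CPM, were named by rank. The 5 most similar to Ptgds, ranked by the smaller r of the 2 cohorts, were the amino acid transporter Slc6a20a (0.79), the proteoglycan Fmod (0.74), Mpzl2 (0.73), the connexin Gjb2 (0.72) and Emp3 (0.71). For Slc6a13 they were Gjb2 (0.80), the retinoic acid-making enzyme Aldh1a2 (0.76), Fmod (0.74), the organic anion transporter Slc22a6 (0.73) and vitronectin, Vtn (0.72). Dcn stood closest to Gpr182 (0.61), Lum (0.60), Fmod (0.59), Slc6a13 (0.56) and Ptgds (0.55). Lum stood closest to Gstm2 (0.65), Ifitm2 (0.65), the proteoglycan Ogn (0.65), the collectin Colec12 (0.62) and Pcolce (0.61), an enhancer of procollagen processing. For Bgn they were Slc6a20a (0.75), matrix Gla protein Mgp (0.72), the complement inhibitor Serping1 (0.70), Fcgrt (0.69) and Gjb2 (0.67). Of these 25 pairs, 20 stayed among the closest 5 when the choroid plexus libraries were left out.

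The name of the group was checked against marker genes. Over the 41 genes of a meningeal and perivascular fibroblast list with a mean of at least 1 CPM, the median r with a member was between 0.37 (Dcn) and 0.50 (Ptgds) in diet and between 0.40 (Dcn) and 0.56 (Ptgds) in plasma libraries. Over all genes it was between -0.01 and 0.01. Lists of other cell types were close to some members too. The 5 border macrophage genes had a median r between 0.31 (Dcn) and 0.44 (Slc6a13) in diet and between 0.38 (Dcn) and 0.53 (Bgn) in plasma. This exceeded the fibroblast list for Slc6a13 in both cohorts (0.44 against 0.39, and 0.48 against 0.46), and in plasma for Bgn (0.53 against 0.48) and Lum (0.50 against 0.45). The 12 choroid plexus epithelium genes had a median r of 0.51 in diet and 0.24 in plasma with Lum, and of 0.40 and 0.04 with Bgn, against 0.10 and 0.12 with Ptgds. For Lum this exceeded the fibroblast list in diet (0.51 against 0.40) but not in plasma (0.24 against 0.45). The 11 oligodendrocyte genes had 0.21 and 0.33 with Ptgds, and between -0.13 and 0.13 with the other 4. Cldn11, the claudin of myelin and arachnoid, is on both the fibroblast and the oligodendrocyte list. The summed fibroblast list did not rank regions as its single genes Gjb2 and Aldh1a2 did. In AL mice the median sum was 1549 CPM in medulla and 936 CPM in visual cortex. Gjb2 had medians of 7.43 and 22.5 CPM there, and Aldh1a2 of 5.37 and 13.6 CPM. Sums of this list given below are therefore no direct measure of fibroblast content.

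Plasma of young mice against saline was compared next, to ask where in the brain each gene differed with treatment. The 5 genes were mostly lower in YMP mice: 56 of 75 fitted gene-by-region changes were below 0, against 50.9% of all such changes. These 75 changes are not independent, since the 5 genes moved together between libraries and the regions share mice. Most were small against the spread between mice. Within regions, in edgeR's quasi-likelihood test, 20 of the 75 had an unadjusted p under 0.05 (16 lower, 4 higher, against 6.11% of all tests in either direction), and 1 passed adjustment. That 1 was Ptgds in cerebellum, on which the genes were selected, so nothing is read from it or from its place in these counts. Over all tests 26 passed (0.0127%), 25 of them in corpus callosum. DESeq2 called 4, the same Ptgds value, Slc6a13 in cerebellum, and Dcn and Lum in SVZ. Over all genes DESeq2 also called far more than edgeR, as counted in the last section, so the edgeR share is no measure for these 4.

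Taken over all regions, each mouse gave 1 value per gene. Lum was lowest in all 3 YMP mice, with 1.91, 1.75 and 2.06 log2 CPM against 2.67, 2.61, 2.38 and 2.27 in the 4 PBS mice. The groups did not overlap, as for 5.34% of all genes in that direction, and the difference was -0.58 (SE 0.12). It did not pass adjustment (limma unadjusted p 0.00118, adjusted p 0.2997). Without the SVZ it was -0.38 (limma adjusted p 0.747). For the other members the differences were -0.29 for Ptgds (SE 0.15), -0.24 for Dcn (SE 0.14), -0.22 for Slc6a13 (SE 0.17) and -0.20 for Bgn (SE 0.12), with limma adjusted p-values between 0.641 and 0.756 and groups that overlapped. Thus 0 of 5 passed and 1 of 5 had an unadjusted p under 0.05, against 0% and 8.35% of all 15768 genes. For Ptgds, PBS mouse 72 was the highest at 10.3 log2 CPM, and without it the difference was -0.13. For Dcn, YMP mouse 77 was the lowest at 3.69 log2 CPM against 4.30 to 4.39 in the PBS mice, and the other 2 YMP mice lay inside that range.

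**Figure D2:**
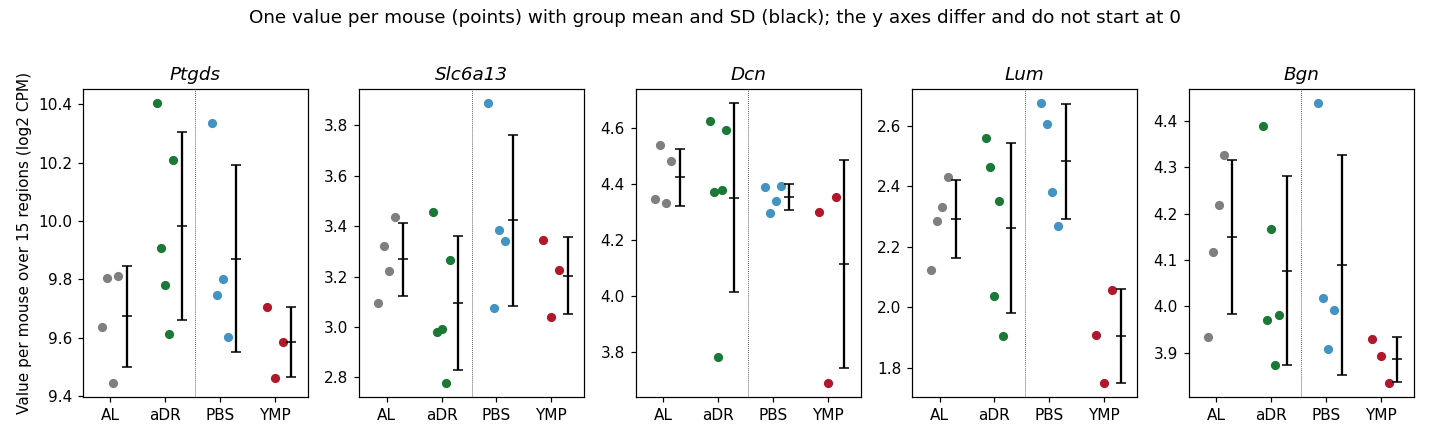
Value of each gene per mouse over its brain regions (log2 CPM, y axes that differ and do not start at 0) in the AL, aDR, PBS and YMP groups, with mean and SD in black. The 3 YMP mice lie below the 4 PBS mice for Lum (1.75 to 2.06 against 2.27 to 2.67), and the PBS and YMP groups overlap for the other 4 genes.

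Lum, Dcn and Bgn had their lowest plasma value of any region in the SVZ. Lum read 14.3, 21.0, 7.54 and 5.00 CPM in the 4 PBS mice and 0.729, 0.962 and 1.31 CPM in the 3 YMP mice, so that every YMP library was below every PBS library. The difference was -3.56 (SE 0.55, edgeR adjusted p 0.0688). The call was sensitive to the tool: the adjusted p was 1.93e-07 with DESeq2 and 0.0479 in edgeR without the filter on low counts. Dcn read 13.3, 29.6, 9.88 and 6.25 CPM in PBS and 4.37, 4.06 and 3.10 CPM in YMP mice, a difference of -2.02 (SE 0.50, edgeR adjusted p 0.155, 0.00575 with DESeq2). Bgn read 16.7, 15.4, 10.7 and 12.9 CPM against 9.72, 7.59 and 9.02 CPM, a difference of -0.70 (SE 0.20, edgeR adjusted p 0.212). For these 3 proteoglycans the groups did not overlap. How many of all genes were apart in this region was not counted. Ptgds (-1.23, SE 0.51) and Slc6a13 (-0.79) had groups that overlapped. In all, 4 of 5 members had an unadjusted p under 0.05 and were lower, against 7.9% of all genes in this region, and 0 of 5 passed adjustment in edgeR.

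In the same SVZ libraries choroid plexus transcripts moved with treatment. The summed level of the 12 choroid plexus epithelium genes ran from 4723 to 32875 CPM in PBS mice and from 254 to 511 CPM in YMP mice. Ttr, transthyretin, the most abundant of them, read between 2494 and 18189 CPM in PBS and between 0.107 and 3.38 CPM in YMP libraries. In the diet cohort the sums of AL and aDR mice overlapped, and Lum is given beside them. AL mice 63 and 68, with sums of 428 and 920 CPM, held 1.20 and 3.25 CPM of Lum, and AL mice 66 and 69, with 5945 and 5969 CPM, held 9.55 and 7.09 CPM. aDR mice 64 and 67 (418 and 680 CPM) held 1.19 and 2.12 CPM of Lum, and aDR mice 61, 62 and 65 (16864, 8645 and 10013 CPM) held 13.9, 10.6 and 13.5 CPM. The part of choroid plexus tissue in the lower Lum, Dcn and Bgn of YMP mice was not tested. The summed fibroblast list, with the limit given above, was between 1242 and 2161 CPM in PBS libraries of the SVZ. In YMP libraries it was between 674 and 1186 CPM.

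Corpus callosum showed a like pattern. Lum read 8.51, 5.37 and 1.97 CPM in the 3 PBS mice and 1.74 and 1.33 CPM in the 2 YMP mice, a difference of -1.90 (SE 0.59, edgeR adjusted p 0.367). The groups were apart by a narrow margin, and without PBS mouse 84 the difference was -2.25 (edgeR adjusted p 0.00912). Dcn read 9.37, 9.08 and 6.18 CPM against 5.23 and 4.68 CPM (-0.76, SE 0.29, edgeR adjusted p 0.533). The sum of the choroid plexus genes ran from 8128 to 30474 CPM here in PBS mice, against 596 to 643 CPM in YMP mice, and their part in the difference was not tested.

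**Figure D3:**
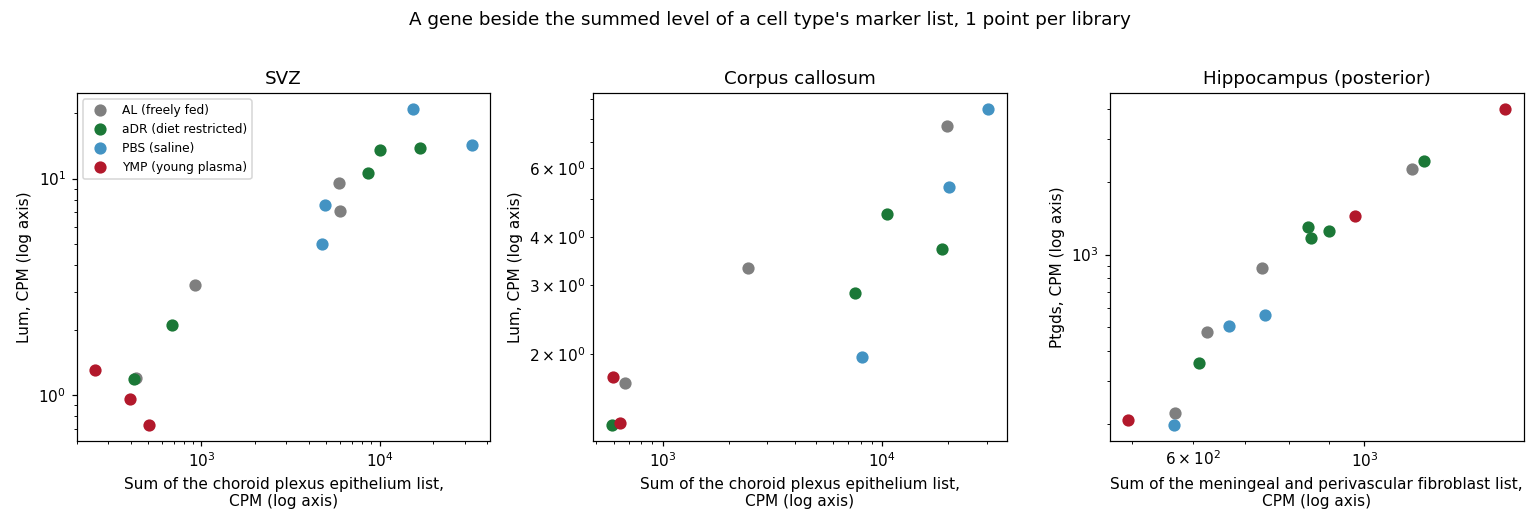
CPM of Lum against the summed CPM of 12 choroid plexus epithelium genes in SVZ (16 libraries) and corpus callosum (12 libraries), and CPM of Ptgds against the summed fibroblast list in posterior hippocampus (15 libraries), all axes logarithmic, 1 point per library coloured by group. In SVZ the YMP libraries sit at sums of 254 to 511 CPM and the PBS libraries at 4723 CPM or more. Lum of the YMP libraries runs from 0.73 to 1.3 CPM. AL mouse 63 and aDR mouse 64, at sums of 428 and 418 CPM, hold 1.20 and 1.19 CPM of Lum.

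Whether the treatment difference of a gene varied between regions was tested with an F test in edgeR on the interaction of region and treatment. Lum passed (F 4.64, edgeR adjusted p 0.00296), 1 of 5 members against 0.786% of all genes. The call ended when the SVZ was left out (edgeR adjusted p 0.725), when YMP mouse 81 was left out (0.445), and when YMP mouse 73 (0.0893) or YMP mouse 77 (0.0503) was left out. Ptgds, which ran from -1.46 in cerebellum to 2.17 in posterior hippocampus, did not pass (edgeR adjusted p 0.169), nor did Dcn (0.417), Bgn (0.720) or Slc6a13 (0.950). At an unadjusted p under 0.05 there were 3 of 5 (Lum, Ptgds and Dcn), against 7.62% of all genes. The Ptgds test includes the cerebellum value on which the genes were selected, so nothing is read from its place in this count.

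In the cerebellum, Ptgds read 968, 1038 and 710 CPM in the 3 PBS mice and 296, 346 and 340 CPM in the 3 YMP mice. Every YMP library was below every PBS library, by 1.46 on the log2 scale in the fit. The edgeR adjusted p of this value was over 0.05 when PBS mouse 72 or 80 or any YMP mouse was left out, and the difference then ran from -1.51 to -1.35. Slc6a13 read 14.8, 12.1 and 11.02 CPM in PBS and 7.94, 5.03 and 5.70 CPM in YMP mice, again without overlap, a difference of -1.005 (SE 0.20, edgeR adjusted p 0.362, 0.0258 with DESeq2). Bgn read 17.8, 12.6 and 16.3 CPM against 11.03, 12.3 and 8.54 CPM (-0.56, SE 0.17, edgeR adjusted p 0.429), also without overlap. Dcn and Lum did not share this. Dcn read 22.7, 19.1 and 19.6 CPM in PBS and 20.4, 25.2 and 19.1 CPM in YMP mice (0.06), and Lum read 4.90, 6.42 and 5.98 CPM against 7.94, 7.13 and 3.99 CPM (0.17). Beside Ptgds, on which the genes were selected, Slc6a13 and Bgn had an unadjusted p under 0.05 and were lower, as were 5.27% of all genes in this region. The share of all genes without overlap here was not counted.

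Other tissue markers were read in these cerebellum libraries. Of the fibroblast list, Slc22a6 was between 5.34 and 6.00 CPM in PBS and between 2.05 and 3.70 CPM in YMP libraries, and Aldh1a2 between 7.28 and 7.68 against between 2.73 and 4.32 CPM. Col1a1 (8.48 to 10.4 against 5.24 to 7.13 CPM) was lower and the forkhead factor Foxc1 (5.14 to 5.85 against 5.31 to 6.53 CPM) was not. The whole list summed to between 1126 and 1436 CPM in PBS and between 1073 and 1180 CPM in YMP libraries, and 30 of its 38 tested genes were below 0 with a median of -0.38, against -0.01 over all genes. The oligodendrocyte list was between 8162 and 10763 CPM in PBS and between 9394 and 15776 CPM in YMP libraries. The 5 blood genes were all below 0, at a sum between 12.6 and 81.5 CPM in PBS and between 6.38 and 39.7 CPM in YMP libraries. The part of tissue content in the lower Ptgds, Slc6a13 and Bgn was not tested.

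In posterior hippocampus Ptgds, Slc6a13, Bgn and Lum were higher in the YMP mean and Dcn was lower. Ptgds read 197, 506 and 561 CPM in the 3 PBS mice and 3994, 208 and 1447 CPM in YMP mice 73, 77 and 81. Slc6a13 read 9.87, 10.1 and 15.1 CPM against 55.5, 5.16 and 28.1 CPM, and Bgn 14.5, 10.2 and 13.2 CPM against 42.8, 13.2 and 24.2 CPM. YMP mouse 73 was the highest and YMP mouse 77 near or below the PBS mice in each of these genes, and the groups overlapped. The differences were 2.17 for Ptgds (SE 0.91), 1.35 for Slc6a13 and 1.09 for Bgn (SE 0.38), with edgeR adjusted p-values of 0.9996 for each, and without YMP mouse 73 the Ptgds value was 0.98 and the Bgn value 0.60. Lum read 9.34, 4.45 and 10.3 CPM in PBS and 16.1, 6.73 and 15.7 CPM in YMP mice (0.70). Dcn read 24.6, 70.0 and 77.2 CPM in PBS and 80.6, 8.53 and 32.1 CPM in YMP mice (-0.49, SE 0.70), with groups that overlapped. The fibroblast list summed to between 568 and 744 CPM in PBS and between 495 and 1518 CPM in YMP libraries, in the same order of YMP mice as Ptgds in the plot of Ptgds against that sum.

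Dcn in entorhinal cortex was the other high value. It read 20.04, 62.6, 67.2 and 88.9 CPM in PBS and 130, 48.5 and 479 CPM in YMP mice, a difference of 1.89 (SE 0.72, edgeR adjusted p 0.910). YMP mouse 77 lay within the PBS range, and without YMP mouse 81 the difference was 0.59. In the same libraries Ptgds was lower, at 2065, 2262 and 2577 CPM against 3561, 3659, 3530 and 2333 CPM (-0.50, SE 0.18, edgeR adjusted p 0.910), with PBS mouse 84 inside the YMP range.

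In visual cortex all 5 members were lower in YMP mice and 3 of 5 had an unadjusted p under 0.05, against 1.5% of all genes in this region in that direction. They were Bgn (-0.33), Dcn (-0.43) and Slc6a13 (-0.35, and -0.22 without YMP mouse 77 or -0.55 without YMP mouse 73), each with an edgeR adjusted p of 0.999. The groups were apart for Bgn, Dcn and Lum, and the share of all genes apart in this region was not counted. Caudate putamen held 312, 748, 352 and 253 CPM of Ptgds in PBS and 223, 240 and 161 CPM in YMP mice, apart by a narrow margin (-1.02, SE 0.36, edgeR adjusted p 0.474). Without PBS mouse 76 the difference was -0.57. In these libraries the oligodendrocyte list summed to between 18537 and 45254 CPM in PBS and between 11910 and 18874 CPM in YMP mice, and its part was not tested. In medulla, Lum (-1.28, SE 0.41) and Slc6a13 (-1.18, SE 0.52) were lower with overlapping groups. PBS mouse 72 was the highest medulla library for both, with 6.42 CPM of Lum and 24.3 CPM of Slc6a13, and without it the differences were -0.95 and -0.37.

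Lum in olfactory bulb turned on which YMP mouse was counted. It read 7.17, 8.12, 7.32 and 4.99 CPM in PBS and 3.10, 4.00 and 17.2 CPM in YMP mice 73, 77 and 81, a fitted difference of 0.77 (SE 0.33, edgeR adjusted p 0.553). The lowest of these rested on 2 counts, in the smallest library of the series. The difference was -0.83 without YMP mouse 81 (edgeR adjusted p 0.750) and 1.19 without YMP mouse 77 (edgeR adjusted p 0.0107). The direction of Lum in this region thus depended on single YMP mice.

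**Figure D4:**
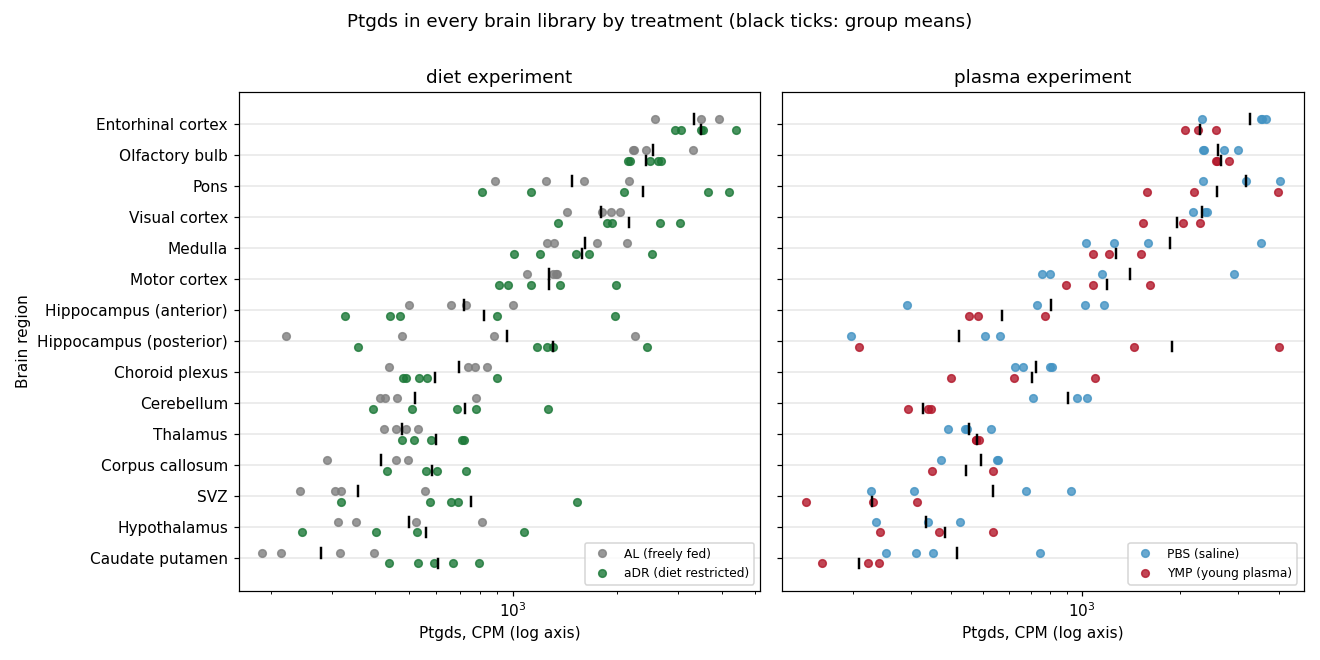
CPM of Ptgds (log axis) in every brain library of the diet cohort (AL, aDR) and the plasma cohort (PBS, YMP), 1 point per library with black ticks at group means. In cerebellum the 3 YMP libraries lie between 296 and 346 CPM, below the 3 PBS libraries at 710 CPM or more, and in posterior hippocampus the YMP libraries run from 208 to 3994 CPM.

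Dietary restriction was compared with free feeding in the same way. The members showed no shared direction: 41 of 75 changes were below 0, against 49% of all changes. In edgeR 5 of the 75 had an unadjusted p under 0.05 (2 lower, 3 higher, against 6.24% of all tests) and 0 passed adjustment, against 0.0525% of all tests. DESeq2 called 1, Ptgds in caudate putamen (adjusted p 0.0123), and over all genes it also called more than edgeR, as counted in the last section.

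Ptgds was above 0 in 12 of 15 regions under restriction. In caudate putamen it read 188, 396, 214 and 316 CPM in the 4 AL mice and 591, 798, 669, 439 and 532 CPM in the 5 aDR mice. Every aDR library was above every AL library, and the difference was 1.12 (SE 0.24, edgeR adjusted p 0.618). The oligodendrocyte list was between 12361 and 31327 CPM in AL and between 16929 and 31041 CPM in aDR libraries of this region, and the fibroblast list between 737 and 1328 CPM against between 1308 and 1866 CPM. The part of either in the Ptgds difference was not tested. In SVZ Ptgds read 242, 558, 317 and 305 CPM in AL and 1526, 694, 317, 660 and 577 CPM in aDR mice (1.10, SE 0.41, edgeR adjusted p 0.981), with overlap, and without aDR mouse 61 the difference was 0.67. In thalamus it read 530, 491, 460 and 424 CPM against 578, 516, 478, 720 and 712 CPM (0.34, SE 0.13, edgeR adjusted p 0.990), with overlap.

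Over all regions the Ptgds values per mouse were 9.64, 9.80, 9.44 and 9.81 log2 CPM in AL and 10.4, 9.91, 9.78, 9.61 and 10.2 log2 CPM in aDR mice. The difference was 0.31 (SE 0.15, limma adjusted p 0.315), and the groups overlapped. Slc6a13 (-0.17, SE 0.12), Dcn (-0.07, SE 0.14), Bgn (-0.07, SE 0.10) and Lum (-0.03, SE 0.13) had limma adjusted p-values between 0.525 and 0.943. So 0 of 5 passed, and 0 of 5 had an unadjusted p under 0.05, against 1.75% and 16.8% of all 15616 genes. None of the 5 was called for a difference between regions in its response (edgeR adjusted p 1 for each), against 0.0128% of all genes called. At an unadjusted p under 0.05 there were 0 of 5, a share not counted over all genes.

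The proteoglycans and the transporter gave 2 further differences at an unadjusted p under 0.05. Bgn in cerebellum read 14.8, 15.9, 25.3 and 15.1 CPM in AL and 14.3, 11.5, 11.8, 11.9 and 13.7 CPM in aDR mice (-0.47, SE 0.16, edgeR adjusted p 0.243). The groups were apart by a narrow margin, and without AL mouse 68 the difference was -0.26. All 11 oligodendrocyte genes were below 0 in this region too, with a median of -0.48, against -0.003 over all genes. Their sum was between 8918 and 15878 CPM in AL and between 5503 and 13550 CPM in aDR libraries, and their part in the Bgn difference was not tested. Slc6a13 in choroid plexus read 6.18, 14.4, 6.72 and 10.6 CPM in AL and 5.25, 5.37, 3.29, 7.12 and 6.44 CPM in aDR mice (-0.75, SE 0.29, edgeR adjusted p 0.9995), with overlap, and without AL mouse 66 the difference was -0.49. In motor cortex, aDR mouse 64 was the highest of its group for Bgn (25.2 CPM) and Slc6a13 (14.9 CPM). Without it both were called in edgeR, with -0.53 for Bgn (adjusted p 0.0307) and -0.57 for Slc6a13 (adjusted p 0.0453), whereas with all mice neither had an unadjusted p under 0.05. In liver, where Ptgds was too low to test, Dcn (0.17), Bgn (-0.10), Slc6a13 (-0.05) and Lum (0.38) did not pass (edgeR adjusted p between 0.867 and 0.984).

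**Figure D5:**
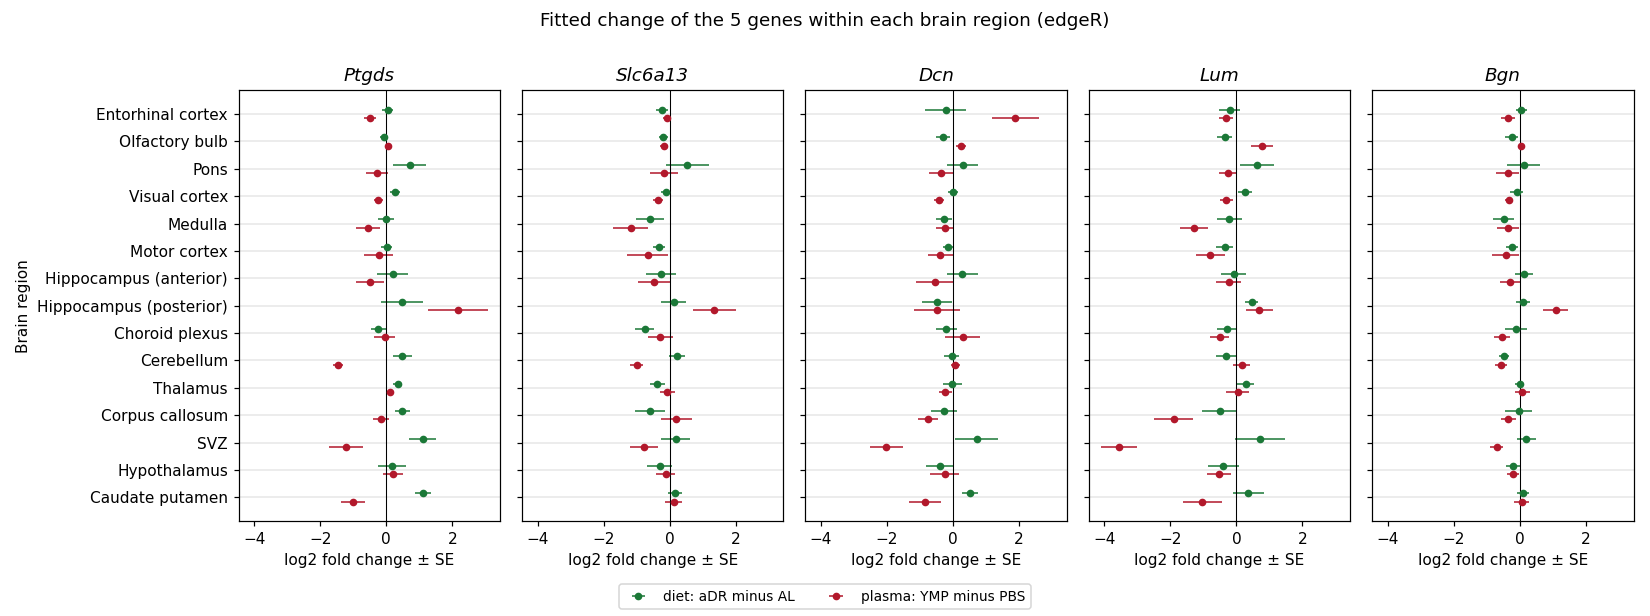
Fitted log2 fold change with its SE (edgeR, x axis) of each gene in each of 15 brain regions, for aDR minus AL in the diet cohort and YMP minus PBS in the plasma cohort. For Lum the lowest value is -3.56 in SVZ of the plasma cohort, and for Ptgds the plasma values run from -1.46 in cerebellum to 2.17 in posterior hippocampus.

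Neighbouring pathways were read in the same fits. Of the prostaglandin genes (synthases, transporters and receptors), 21 of 23 could be tested. Across regions 0 of 21 passed in plasma, with a median difference of -0.00 and 2 at an unadjusted p under 0.05, against 8.35% of all genes. In diet 0 of 21 passed, with a median of -0.02 and 3 at an unadjusted p under 0.05, against 16.8% of all genes. The smallest p-values belonged to Tbxas1, thromboxane synthase (-0.30, limma adjusted p 0.567), and Pla2g4a, the phospholipase that frees arachidonic acid (-0.30, adjusted p 0.569), in plasma. In diet they belonged to Ptges3 (-0.08, limma adjusted p 0.149) and Ptgfr, the prostaglandin F receptor (-0.33, adjusted p 0.149). 

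The other small leucine-rich proteoglycans and the fibroblast list were mostly below 0 in YMP mice, and none passed the test. Across regions 10 of 11 proteoglycans were below 0 in plasma, with a median of -0.28, and 39 of 44 fibroblast genes, with a median of -0.26, against 51.8% below 0 and a median of -0.00 over all genes. In limma 0 of 11 and 0 of 44 passed adjustment, and 6 and 18 had an unadjusted p under 0.05, against 8.35% of all genes. Podn (-0.54, adjusted p 0.358) and Ecm2 (-0.33, adjusted p 0.359) had the smallest p-values of the proteoglycans, and Slc13a4, a sulfate transporter (-1.09, adjusted p 0.214), and Pcolce (-0.75, adjusted p 0.276) those of the fibroblast list. All 12 choroid plexus genes were below 0 too, with a median of -1.24, and 0 of 12 passed. Ogn (edgeR adjusted p 0.0514) and Fmod (0.396) had the smallest p-values of 11 proteoglycans in the test of the difference between regions. There 0 of 11 passed and 3 had an unadjusted p under 0.05, against 7.62% of all genes.

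In that test of the plasma difference between regions 7 of 44 fibroblast genes passed, against 0.786% of all genes. They were Igfbp2 (edgeR adjusted p 7.23e-05), Igf2 (0.00059), Pcolce (0.00125), Slc13a4 (0.00315), Slc47a1 (0.00489), Mgp (0.0161) and Ccn3 (0.0179). Like Lum, 5 of them stood far lower in the SVZ of YMP mice: Igfbp2 (-4.12), Igf2 (-3.98), Pcolce (-4.01), Slc13a4 (-5.23) and Mgp (-2.13), with edgeR adjusted p-values between 0.0688 and 0.0936. The same 5 were lower in corpus callosum of YMP mice. There Slc13a4 (-5.66), Igfbp2 (-5.17), Igf2 (-4.93) and Pcolce (-4.02) were called (edgeR adjusted p between 0.0397 and 0.0495). Mgp (-1.86, edgeR adjusted p 0.0871) was not. The choroid plexus sum split by treatment in both regions, and its part was not tested. Ccn3 stood higher in the SVZ (3.72, edgeR adjusted p 0.0519) and lower in cerebellum of YMP mice (-4.54, edgeR adjusted p 0.362). Slc47a1 was lower in cerebellum (-6.24, edgeR adjusted p 0.218) and in medulla (-2.02, edgeR adjusted p 0.447) of YMP mice. Of the 12 choroid plexus genes 4 passed the same test, Kl, Enpp2, Aqp1 and Ttr. Of the 5 GABA and related transporters 0 passed, with 2 at an unadjusted p under 0.05, against 7.62% of all genes. Slc6a11 (0.459) and Slc6a12 (0.603) had the smallest edgeR adjusted p-values of them. Across regions in plasma they were all below 0, with Slc6a11 (-0.21, limma adjusted p 0.403) and Slc6a8 (-0.21, limma adjusted p 0.607) first.

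In diet across regions the lists showed little. Gjb6, a connexin of astrocytes and meninges, was the 1 of 45 fibroblast genes that passed, and it rose (0.28, limma adjusted p 0.0369). The list's median was -0.00, with 23 below 0 and 22 above, against 53.4% of all genes below 0, and 9 had an unadjusted p under 0.05, against 16.8% of all genes. Of 11 proteoglycans 0 passed and 3 had an unadjusted p under 0.05, with Prelp (-0.20, limma adjusted p 0.213) and Aspn (-0.30, adjusted p 0.237) first. Of 5 transporters 0 passed and 2 had an unadjusted p under 0.05, among them Slc6a8 (0.12, limma adjusted p 0.149). In the diet test of the difference between regions 0 genes of these lists passed in edgeR, and Col1a2 (adjusted p 0.991) and Col1a1 (1), both of the fibroblast list, had an unadjusted p under 0.05.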

How the data were processed

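Messenger RNA was prepared with RNeasy, Smart-Seq2 and Nextera XT and sequenced without strand, per the labels' protocols. The authors used Trim Galore 0.3.7, STAR 2.5.3a and GRCm38, per the submitters' processing notes. The deposited table holds raw counts per gene; the counting program and annotation are not given in the sources used here. The 5 members and all lists were chosen with earlier results of these data known. Genes beside the members were named by fixed ranks, the smallest p in each list and the highest similarity.

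Regions were fitted with edgeR 4.0.16 (TMM, quasi-likelihood, minimum count 10, total 15), differences between regions with edgeR's F test, and 1 value per mouse with limma 3.58.1 on log2 CPM (prior 2), in R 4.3.3. DESeq2 1.42.0, other filters and scalings, voom fits and leaving out mice or regions were alternatives. The code was tested on simulated data. The same mouse number in the labels was taken as 1 animal across regions. Deviations from group means correlated weakly, at 0.04 within and -0.01 between diet mice, and at 0.09 and -0.01 in plasma. Values this close to 0 do not settle the identity of the animals. No library was left out. A result for 1 listed gene is not reported here. Total counts limit precision most for Lum.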

Additional observations from a re-analysis of the deposited data

Results flagged for a closer look

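In 20 of 200 gene, region and treatment groups of 4 or 5 mice, the highest or lowest library stood apart from the rest by Dixon's 95% criterion, where chance gives about 10. Ptgds had 4 of them. It was high in cerebellum of AL mouse 69 (779 CPM, others 412 to 460) and choroid plexus of aDR mouse 61 (899 CPM, others 479 to 563). It was low in motor cortex of AL mouse 66 (1097 CPM, others 1300 to 1336) and entorhinal cortex of PBS mouse 84 (2333 CPM, others 3530 to 3659).

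Several libraries stood apart for more than 1 gene. PBS mouse 72 did so in motor cortex for Dcn (17.4 CPM), Bgn (35.2 CPM) and Slc6a13 (40.8 CPM). In the same region aDR mouse 64 did so for Bgn (25.2 CPM, others 12.7 to 13.9) and Slc6a13 (14.9 CPM, others 7.63 to 9.07). aDR mouse 62 did so in caudate putamen for Dcn (14.5 CPM, others 6.30 to 8.28) and Lum (5.63 CPM, others 0.888 to 1.85).

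The other proteoglycan values were high in 6 groups and low in 1. Dcn was high in cerebellum of aDR mouse 67 (37.8 CPM), thalamus of AL mouse 68 (18.0 CPM) and visual cortex of AL mouse 66 (14.6 CPM), and low in anterior hippocampus of PBS mouse 76 (5.90 CPM, others 36.0 to 40.3). Bgn was high in cerebellum of AL mouse 68 (25.3 CPM). Lum was high in medulla of AL mouse 69 (6.55 CPM) and caudate putamen of PBS mouse 76 (7.05 CPM). Slc6a13 was high in posterior hippocampus of aDR mouse 67 (27.6 CPM) and hypothalamus of AL mouse 69 (10.2 CPM).

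The plasma difference of Lum varied between regions (edgeR F test, adjusted p 0.00296), and the choroid plexus sums that moved with it in SVZ and corpus callosum are given above.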

How the results depend on the processing

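The member-by-region calls were 1 in plasma, 2 without the filter on low counts and 4 with DESeq2 (the 1, Ptgds in cerebellum, had adjusted p-values from 6.54e-22 to 0.506 over 9 alternatives); in diet they were 0, and 1 with DESeq2. With voom and no replicate block, 3 differences across regions passed: Ptgds in diet (0.30, adjusted p 0.0322), Bgn in plasma (-0.25, 0.0315) and Lum in plasma (-0.40, 0.0439). With the mouse as a replicate block in voom, Dcn in plasma was 0.032 (adjusted p 0.968), a change of sign whose cause was not tested, and the difference of Lum between regions kept an adjusted p of 0.00466; that p was 0.725 without the SVZ. Leaving out 1 mouse at a time, Lum between regions had adjusted p-values from 0.00267 to 0.445, Dcn across diet ran from -0.15 to 0.064, Lum across diet from -0.10 to 0.061, and Lum in olfactory bulb in plasma from -0.83 to 1.19.

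Over all genes, across regions in diet 273 were called, with 1475 (voom, block), 2760 (voom, no block), 165 (no filter), 144 (limma without trend) and 52 to 311 (leaving out a mouse). Across plasma 0 were called in limma (8.35% at an unadjusted p under 0.05), with 468 and 2629 in voom with and without the block, and 0 to 2 leaving out a mouse. Between regions in plasma 124 were called, with 12 without the SVZ, 10 without corpus callosum, 187 without choroid plexus and 3 to 153 leaving out a mouse; in diet 2, with 1 without corpus callosum and 0 to 2 leaving out a mouse. Gene-by-region calls were 108 in diet (185 without the filter, 523 in DESeq2) and 26 in plasma (44 with RLE, 422 without the filter, 946 in DESeq2). Libraries of few counts limit Lum most.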
